A study of Canis lupus familiaris with 29 samples.

Results

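RET is a receptor tyrosine kinase that works as part of a complex. A ligand of the GDNF family binds a co-receptor of the GFRα family on the cell surface, and the bound co-receptor brings RET molecules together so that they phosphorylate each other and start signalling through the RAS and ERK, PI3K and AKT, and PLCγ routes. GDF15 reaches RET through GFRAL, a related co-receptor best known from the hindbrain, where it restrains food intake. Cells of the neural crest, from which the adrenal medulla comes, use RET during their development, and inherited variants that activate RET cause a human tumor syndrome that includes pheochromocytoma. The genes described here are the receptor RET, the co-receptors GFRA1, GFRA2, GFRA3, GFRA4 and GFRAL, and the ligands GDNF, NRTN, ARTN and GDF15, 10 genes chosen by name. Of the 30951 genes in the count table, 9 carried one of these names. ARTN was not found, and 12712 genes of the table have no name.

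RNA was sequenced from 19 tumors of client-owned dogs, each a pheochromocytoma or a paraganglioma (PPGL), and from the normal adrenal medulla (NAM) of 10 healthy dogs. The tumors fall into PPGL group 1, with 7 tumors, and PPGL group 2, with 12. The authors drew these groups from a principal component analysis of the same expression data, after leaving out tumors that stood apart in it, so a p-value between the groups describes that split. Tumors came from several clinics and some were placed in a stabilizing solution before freezing, while the NAMs came from research dogs and were frozen directly, so source, handling and tissue cannot be told apart. The labels name no batch, age or sex. Total counts per sample were 19258054 to 35918182 in NAMs, 18493540 to 31919833 in PPGL group 1 and 18208718 to 24569667 in PPGL group 2. Levels are given as CPM, the counts scaled to library size after TMM normalization, and as CPM per kb of exon wherever 2 genes are compared. A count of 3 reads was taken as the floor, which corresponds to 0.0779 to 0.175 CPM in these libraries. Intervals and floors cover counting error only. Tumors are named by their group and sample number in the labels.

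Marker genes were read before the members, and the gene with the highest mean CPM over all samples, not corrected for length, is named for each list. All 10 chromaffin cell markers were found, and the gene named is CHGB, a granule protein. In PPGLs against NAMs 3 of the 10 were called, SYP and CYB561 higher and PNMT lower. The summed level of the 10 markers ran from 18080 to 97728 CPM among NAMs and from 7781 to 118956 CPM among PPGLs. DBH, the enzyme that makes noradrenaline, was at 2166 CPM or more in every tumor. TH, the first enzyme of catecholamine synthesis, was at 1057 CPM or more in every NAM but at 10.8 CPM in tumor 3 and 2.15 CPM in tumor 5 of group 1, which also had DDC at 0.285 and 0.358 CPM. In tumor 7 of group 2, TH was at 32.3 CPM. Tumor 7 of group 1 stood apart with CHGB at 27.1 CPM and a summed level of the 8 mitotic markers of 1330 CPM, with TOP2A at 668 CPM. That sum was 16.8 to 77.6 CPM in NAMs, and 7 of the 8 mitotic genes were called higher in PPGLs than in NAMs. Tumor 11 of group 2 stood apart with a summed fibroblast level of 25288 CPM, with COL3A1 at 7960 CPM, and a summed leukocyte level of 836 CPM, with CD163 at 307 CPM. In NAMs the 6 fibroblast markers summed to 266 to 658 CPM and the 6 leukocyte markers to 91.9 to 324 CPM. In PPGLs against NAMs 4 of the 6 fibroblast markers were called, all higher. Of the 6 leukocyte markers 2 were called, CD3E higher and CSF1R lower. Over all genes tested in that comparison 37.5% were called.

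The NAMs also held RNA of the adrenal cortex. Of 11 cortex markers 9 were found, and they summed to 13090 to 63916 CPM in NAMs, 35.2 to 1149 CPM in group 1 and 218 to 31928 CPM in group 2. CYP17A1, the gene named for this list, had a median of 12299 CPM in NAMs and 1.88 CPM in group 1. STAR had a median of 123 CPM in group 1, and the 2 genes were not compared per kb. In 18 of the 19 tumors the sum was below that of every NAM, tumor 10 of group 2 being the exception. MC2R, the ACTH receptor of cortex cells, was at or under the floor in 6 of the 7 tumors of group 1 and in no other sample. Markers of the remaining cell types were present in all 3 groups. The 8 Schwann and sustentacular cell markers found reached sums of 60.7 to 179 CPM among NAMs and 2.50 to 249 CPM among tumors (gene named CDH19), with S100B at or under the floor in 20 of the 29 samples and 0 of 7 tested genes called by edgeR. The 7 neuron-type markers found summed to 467 to 1277 CPM among NAMs, 548 to 1097 CPM in group 1 and 80.6 to 607 CPM in group 2 (STMN2), with 3 of 7 called higher and 2 lower in PPGLs against NAMs, while by the sum 10 of 12 tumors of group 2 were below every NAM. The 6 endothelial markers summed to 408 to 1185 CPM among NAMs and 198 to 975 CPM among tumors (PECAM1). In PPGLs against NAMs 4 of the 6 were called, all lower. Of the kidney and liver markers, UMOD was at 0 in all 29 samples and FGA at or under the floor in all 29, while APOA1 reached 163 CPM among NAMs and 92.0 CPM among tumors.

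Genes were tested with edgeR's quasi-likelihood F test on all genes that passed a filter on low counts, and a gene was called when its Benjamini-Hochberg adjusted p was below 0.05, or below 0.1 between the tumor groups. In PPGLs against NAMs, which asks what differs between tumor and normal medulla, 4 members passed the filter. RET rose and GFRA1 fell, beside 37.5% of all 14766 genes tested that were called, 22.3% higher and 15.2% lower. Between group 1 and group 2 of the tumors, 7 members passed and 1, GFRA3, was called higher in group 1, where 6.92% of 14666 genes were called, 3.97% higher and 2.95% lower. For group 1 against NAMs 3 of 7 members that passed were called, with 35.1% of 15201 genes called in that comparison. Against the same NAMs, 6 of 7 were called in group 2, with 32.9% of genes called. These 2 comparisons share the NAMs as well as the fit. GFRAL, NRTN and GDF15 passed the filter only through their reads in tumors, and a gene that passes in this way had to have a higher level in some tumors than in NAMs, whether or not it was then called. So these counts are no evidence on the members as a set. In each comparison the share called over the members rests on so few genes that 1 gene moves it widely. The 4 members tested in PPGLs against NAMs had a median log2 fold change (FC) of 0.51, beside 0.13 over all genes tested.

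RET, the receptor itself, was read at 2.04 CPM in the lowest NAM, 8.96 CPM at the median and 27.7 CPM in the highest. In group 1 it ranged from 1.43 through a median of 70.3 to 601 CPM, and in group 2 from 46.5 through 142 to 372 CPM. All 12 tumors of group 2 and 5 of 7 in group 1 lay above every NAM. The other 2 were tumor 1 of group 1, at 3.90 CPM, within the range of the NAMs, and tumor 5 of group 1, which had 48 RET reads and lay below every NAM. Mean RET was 168 ± 215 CPM (SD, n = 7) in group 1, where tumor 4 held 51.1% of the summed level, and 157 ± 100 CPM (SD, n = 12) in group 2. The NAMs averaged 10.5 ± 8.17 CPM (SD, n = 10). In all 19 PPGLs together RET rose 15.2-fold (log2 FC 3.93, SE 0.67, adjusted p = 5.67e-05). By group, the log2 FC against NAMs was 3.99 (SE 0.73, adjusted p = 0.000129) for group 1 and 3.89 (SE 0.70, adjusted p = 0.000151) for group 2. Without tumor 4 the group 1 value was 3.17 (adjusted p = 0.000782). In group 1 the call was lost in a Mann-Whitney U-test (adjusted p = 0.220) and in the edgeR fit with the cortex score, the mean log2 level of the cortex markers, as a covariate (log2 FC 6.31, adjusted p = 0.105). That score ran from 9.23 to 11.4 in NAMs, from -0.81 to 3.93 in group 1 and from 3.2 to 10.24 in group 2. It thus largely follows the groups, and a call lost with it, here or below, does not tell score and group apart. Over all alternatives for the group 1 value, adjusted p ran from 2.41e-08 to 0.220. It ran from 2.10e-12 to 0.00326 for all PPGLs and from 5.32e-10 to 0.00336 for group 2, each against NAMs. Group 1 and group 2 differed by a log2 FC of 0.09 (SE 0.72, adjusted p = 0.960), which turned to -0.72 without tumor 4 and to -0.04 without tumor 6 of group 1. In these bulk samples, a different number of cells of a type and a different amount of RNA per cell cannot be told apart.

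GFRA1, the co-receptor that binds GDNF, went the opposite way. Its level was 11.2 CPM in the lowest NAM, 30.9 CPM at the median and 50.3 CPM in the highest, against 0.738, 1.64 and 16.8 CPM in group 1 and 0.212, 3.69 and 34.0 CPM in group 2. No tumor exceeded the NAMs and 15 of 19 lay below all of them. The 4 within their range were tumor 1 of group 1 at 16.8 CPM and tumors 1, 3 and 8 of group 2 at 34.0, 30.2 and 16.7 CPM. The 10 NAMs averaged 30.3 ± 12.5 CPM (SD) and the 19 PPGLs 7.94 ± 9.91 CPM (SD), and GFRA1 fell 3.81-fold (log2 FC -1.93, SE 0.55, adjusted p = 0.00671), with 18 of 19 tumors below the NAM median. Taken by group, the change was -2.50 (SE 0.78, adjusted p = 0.0140) in group 1, or -3.14 without tumor 1, and -1.68 (SE 0.62, adjusted p = 0.0375) in group 2. The groups themselves differed by -0.80 (SE 0.84, adjusted p = 0.643). This value was -1.45 without tumor 1 of group 1 and -0.43 without tumor 1 of group 2.

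Several limits apply to the GFRA1 calls. The cortex markers, listed above by sample group, were lower in PPGLs than in NAMs, as GFRA1 was. Single samples did not all follow this. NAM 8, with the highest cortex score (11.4), had the lowest GFRA1 of the NAMs, 11.2 CPM, and tumor 10 of group 2 (score 10.24) had 1.14 CPM. Tumor 1 of group 2 (score 8.59) had the highest GFRA1 of the tumors, 34.0 CPM. With the cortex score as a covariate the log2 FC of PPGLs against NAMs was -1.36 (adjusted p = 0.253), of group 1 -2.07 (adjusted p = 0.727) and of group 2 -1.54 (adjusted p = 0.321). Over the alternatives adjusted p ran from 0.00131 to 0.253, from 0.00118 to 0.727 and from 0.00830 to 0.321. The ends 0.00131 and 0.00830 came from a fit with a block by sample number, and these numbers do not pair dogs. The call in group 2 was also lost with library size in place of TMM (log2 FC -1.59, adjusted p = 0.0528) and when 1 of 11 libraries was left out: NAM 2, 3, 4 or 7, or tumor 2, 4, 5, 6, 7, 10 or 12 of group 2, with values from -1.57 to -1.68 and adjusted p from 0.0501 to 0.0629. Schwann and sustentacular cell markers were below every NAM in 12 of 19 tumors by their summed level, and their part in the result was not tested.

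GFRA2, the co-receptor that binds neurturin, was spread more widely among tumors than among NAMs. It ranged from 5.82 through a median of 9.92 to 22.5 CPM in NAMs, from 0.856 through 6.52 to 102 CPM in group 1 and from 1.37 through 8.03 to 55.5 CPM in group 2. Tumors 5 and 6 of group 1, at 83.9 and 102 CPM, and tumors 2 and 3 of group 2, at 55.5 and 29 CPM, lay above every NAM, while 6 tumors lay below all of them. PPGLs and NAMs averaged 20.2 ± 28.8 CPM (SD, n = 19) and 10.8 ± 5.04 CPM (SD, n = 10), a log2 FC of 0.90 (SE 0.61, adjusted p = 0.255) that did not pass the threshold. Neither group passed against NAMs, with log2 FCs of 1.49 (adjusted p = 0.108) in group 1 and 0.40 (adjusted p = 0.660) in group 2. The group 2 value was -0.04 without tumor 2, and the group 1 value 0.77 without tumor 6. Between the groups the log2 FC was 1.10 (SE 0.80, adjusted p = 0.476), or 0.39 without tumor 6 of group 1, and that of all PPGLs against NAMs was 0.53 without it.

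GFRA3, the co-receptor that binds artemin, turned on 1 tumor. The NAMs ranged from 4.33 through a median of 28.8 to 86.6 CPM, group 1 from 4.66 through 14.2 to 516 CPM and group 2 from 0.796 through 5.34 to 37.4 CPM. Tumor 1 of group 1, with 11789 GFRA3 reads, was the single tumor above every NAM and held 84.6% of the summed level of its group. The other tumors of group 1 lay between 4.66 and 31.8 CPM, within the range of the NAMs, and 5 of 12 tumors of group 2 lay below all NAMs. Without tumor 1 the mean of group 1 was 15.6 CPM in place of 87.1 CPM. It was the same tumor in which RET was at 3.90 CPM.

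Tests of GFRA3 followed that tumor. Group 1 exceeded group 2 by a log2 FC of 3.37 (SE 0.91, adjusted p = 0.0456), and by 0.86 (adjusted p = 0.510) without it. The call was also lost in DESeq2's Wald test (log2 FC 0.77, adjusted p = 0.507), in a Mann-Whitney U-test (adjusted p = 0.260) and with the cortex score as a covariate (log2 FC 3.93, adjusted p = 0.668), and over all alternatives adjusted p ran from 0.00799 to 0.668. For PPGLs against NAMs the log2 FC was 0.13 (SE 0.82, adjusted p = 0.918), with 16 of 19 tumors below the NAM median. It became -1.65 (adjusted p = 0.0111) without tumor 1 of group 1, -0.01 without NAM 8 and -0.33 as the mean of the 2 group values. DESeq2's Wald test gave -1.63 (adjusted p = 0.00304), the cortex covariate -3.06 (adjusted p = 0.0313) and the Mann-Whitney U-test an adjusted p of 0.0282, within a range of 0.00304 to 0.995 over all alternatives.

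In group 2 alone, GFRA3 was lower than in NAMs by a log2 FC of -1.99 (SE 0.73, adjusted p = 0.0354), and 11 of 12 tumors lay below the NAM median. This call was lost when NAM 3 or 4 or tumor 1, 5, 7, 8 or 12 of group 2 was left out, with values from -1.74 to -1.97 and adjusted p from 0.0503 to 0.0712, and with the cortex covariate (log2 FC -2.22, adjusted p = 0.254). Adjusted p ran from 0.000715 to 0.254 over all alternatives. Group 1 differed from NAMs by 1.33 (SE 0.81, adjusted p = 0.208), which turned to -1.15 both without tumor 1 and in DESeq2's Wald test.

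**Figure D1:**
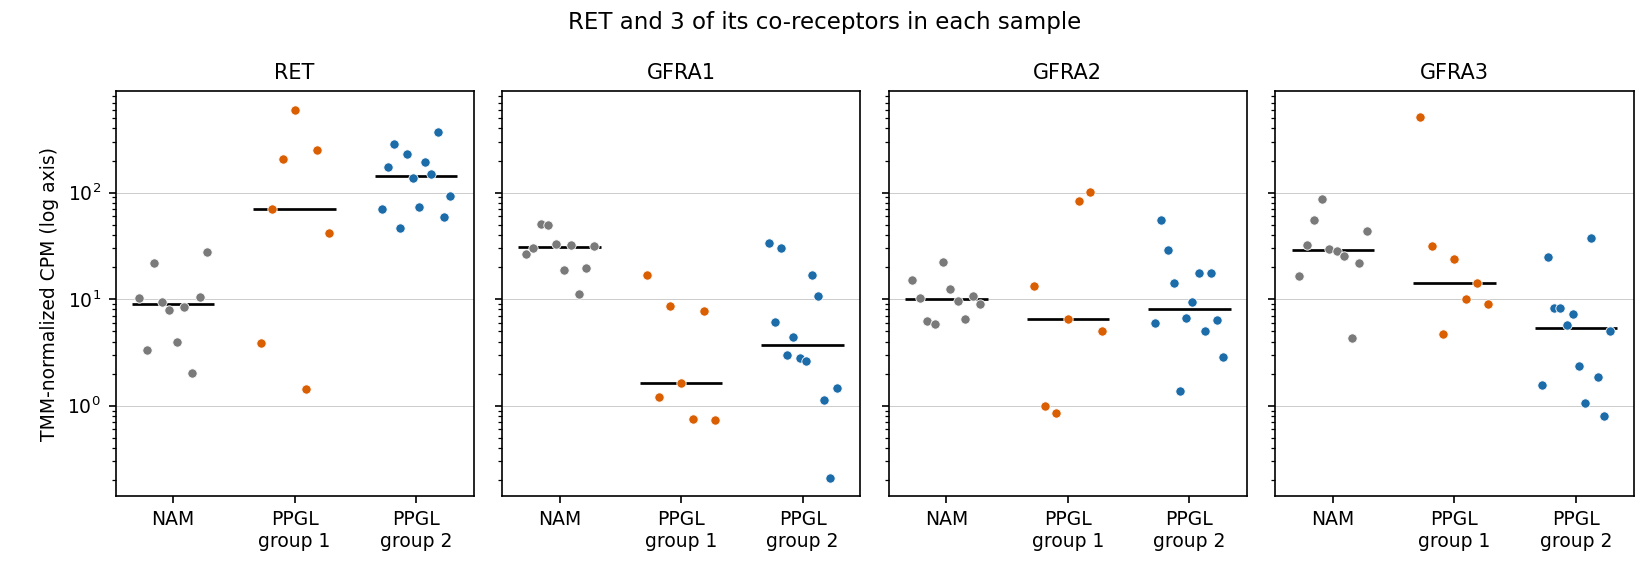
TMM-normalized CPM of RET, GFRA1, GFRA2 and GFRA3 on a log axis, with 1 point per sample and a black line at the median of each group (10 NAMs, 7 tumors of PPGL group 1, 12 of PPGL group 2). RET lay above every NAM in 17 of 19 tumors and GFRA1 below every NAM in 15 of 19, while GFRA3 reached 516 CPM in 1 tumor of group 1.

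GFRA4, the co-receptor of persephin, was near the limit of detection. Raw counts were 0 to 16 in NAMs, 0 to 28 in group 1 and 0 to 10 in group 2, and 5 of 10, 5 of 7 and 8 of 12 samples were at or under the floor. Tumor 2 of group 1 had 28 reads and tumor 7 of group 1 had 11. GFRA4 did not pass the filter in any comparison. In a two-sided permutation test with unadjusted p, the mean log2 CPM of PPGLs differed from that of NAMs by -0.31 (p = 0.47), and in exact permutation tests group 1 differed from group 2 by 0.20 (p = 0.71).

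GFRAL, the receptor of GDF15, was absent or nearly so in some samples and abundant in others. NAM 8 and NAM 10 had 1 read each and the other 8 NAMs none. Of the 19 tumors 9 had more than 10 reads. In group 1 these were tumor 1 with 362 reads and tumor 6 with 842, while the other 5 tumors had 0 to 2. Group 2 had 1609 reads in tumor 5, 372 in tumor 2, 218 in tumor 7, 111 in tumor 4, 60 in tumor 1, 28 in tumor 8 and 19 in tumor 3, and 0 to 2 in the other 5. Both tumor groups thus contained tumors with 362 or more reads beside tumors at 0, and their ranges overlapped those of the NAMs. The highest level, in tumor 5 of group 2, was 62.8 CPM.

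With 2 reads in all NAMs together, the fold is set by those reads. Relative to library size after TMM normalization, GFRAL reads were 1092 times as frequent in PPGLs as in NAMs. The exact 95% interval was 302 to 9024 for counting error. Tumor 5 of group 2 held 1609 of the 3626 reads in PPGLs, so the ratio rests on that tumor as well. GFRAL did not pass the filter in PPGLs against NAMs, and a two-sided permutation test gave a difference in mean log2 CPM of 3.13 (unadjusted p = 0.00390). It passed when 1 NAM was left out, through its reads in tumors alone, and was then called in 10 of 10 such fits. These calls give no separate evidence, since passing already required a higher level in some tumors. In the fit of 3 groups the fitted log2 FC of GFRAL depends on the prior count and is no bound. It was 9.46 (SE 2.07, adjusted p = 0.000800) for group 1 and 9.36 (SE 2.02, adjusted p = 0.000922) for group 2. These became 7.66 without tumor 6 of group 1 and 8.11 without tumor 5 of group 2. In group 1, where 5 of 7 tumors were at or under the floor, the call was lost in the Mann-Whitney U-test (adjusted p = 0.349) and with the cortex covariate (log2 FC 12.47, adjusted p = 0.141), within a range of 1.62e-05 to 0.349. Between the groups the log2 FC of 0.12 (SE 1.59, adjusted p = 0.976) turned to -1.66 without tumor 6 and to -0.07 without tumor 1 of group 1, and to between -0.02 and 0.00 without tumor 6, 8, 9, 10, 11 or 12 of group 2. The span of GFRAL overlaps that of HMGCLL1 on the opposite strand, which had 18713 reads over all samples, but the exons share 0 bases. The strand setting of the counting is not stated, so reads of overlapping genes cannot be told apart where exons of the annotation are incomplete.

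Of the ligands, GDNF was at or under the floor in all 29 samples. The NAMs had 0 to 3 reads, 14 in total, group 1 had 1 read in 1 tumor, and group 2 had 4 reads in 3 tumors. No fold is given at this depth. The difference in mean log2 CPM between PPGLs and NAMs was -0.49 in a two-sided permutation test (unadjusted p = 0.00982). For group 2 against NAMs it was -0.45 (permutation test, unadjusted p = 0.0444), or -0.96 (p = 0.0522) when the prior count was 0.5 in place of 2. Group 1 differed from NAMs by -0.57 (exact permutation test, unadjusted p = 0.0339), or by -1.24 (p = 0.0339) with that prior count. Persephin, PSPN, the GDNF family ligand of GFRA4, had 0 to 1 reads in NAMs and 0 to 5 in PPGLs.

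NRTN, which encodes neurturin, was also at or under the floor in every NAM, with 0 to 3 reads. Tumors of group 1 had 0 to 14 reads and tumors of group 2 had 0 to 39, with a median of 9. By CPM 10 of 12 tumors of group 2 and 2 of 7 of group 1 lay above every NAM, but tumors 1, 3 and 9 of group 2 had 3 reads, as many as NAM 6, and passed it through library size alone. In all, 5 of 12 tumors of group 2 and 5 of 7 of group 1 were at or under the floor. Relative to library size after TMM normalization, NRTN reads were 14.0 times as frequent in PPGLs as in NAMs (exact 95% interval 6.96 to 32.9, counting error). The ratio to NAMs was 5.02 in group 1 (2.21 to 12.8) and 19.8 in group 2 (9.79 to 46.6). Tumor 4 of group 1 held 14 of the 26 reads of its group. A two-sided permutation test of PPGLs against NAMs, where the filter left NRTN out, gave a difference in mean log2 CPM of 1.54 (unadjusted p = 0.00302). In edgeR, group 2 was called against NAMs (fitted log2 FC 4.09, SE 0.90, adjusted p = 0.00105). NRTN failed the filter when tumor 6, 7, 8, 10, 11 or 12 of group 2 was left out, and was called in each of the other 16 such fits. It passed through its reads in tumors alone, so these calls give no evidence separate from the filter. Group 1 was not called against NAMs (2.24, SE 0.97, adjusted p = 0.0734), except when its tumor 7 was left out (2.46, adjusted p = 0.0492; range over alternatives 0.0492 to 0.688), and its value was 1.38 without tumor 4. The difference between the groups, -1.85 (SE 0.96, adjusted p = 0.298), or -2.70 without tumor 4 of group 1, did not pass the threshold, so NRTN is not shown to differ between them. FUT5, which lies within the span of NRTN on the opposite strand, had 1 read in all samples together.

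GDF15, a stress-induced member of the TGF-β superfamily and the ligand of GFRAL, had 0 to 7 reads in NAMs, 2 to 17 in group 1 and 0 to 58 in group 2. Its mean was 0.102 ± 0.0839 CPM (SD) over the 10 NAMs, against 0.505 ± 0.705 CPM (SD) over the 19 tumors, and 9 of 19 tumors lay above every NAM. The highest, tumor 11 of group 2 at 3.08 CPM, was also the tumor with the highest fibroblast and leukocyte sums, whose part in the value was not tested. A two-sided permutation test gave a difference in mean log2 CPM of 1.11 between PPGLs and NAMs (unadjusted p = 0.0192). In edgeR, GDF15 was called in group 2 against NAMs (log2 FC 2.46, SE 0.74, adjusted p = 0.0113), at 1.79 (adjusted p = 0.0388) without tumor 11, and not in group 1 (1.67, SE 0.80, adjusted p = 0.107). GDF15 passed the filter through its reads in tumors alone, so the group 2 call gives no evidence separate from the filter. The call in group 2 was lost in the Mann-Whitney U-test (adjusted p = 0.243) and with the cortex covariate (log2 FC 2.14, adjusted p = 0.172), and adjusted p ran from 0.00362 to 0.285 over all alternatives. The end of 0.285 came from a fit with a block by sample number, and these numbers do not pair dogs. Between the groups the log2 FC was -0.77 (SE 0.85, adjusted p = 0.660). Of the 7 tumors with more than 10 GDF15 reads, 3 also had more than 10 GFRAL reads, namely tumors 1 and 6 of group 1 and tumor 4 of group 2. The tumor with the most GFRAL reads, tumor 5 of group 2, had 1 GDF15 read, and the tumor with the most GDF15 reads, tumor 11 of group 2, had no GFRAL read.

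**Figure D2:**
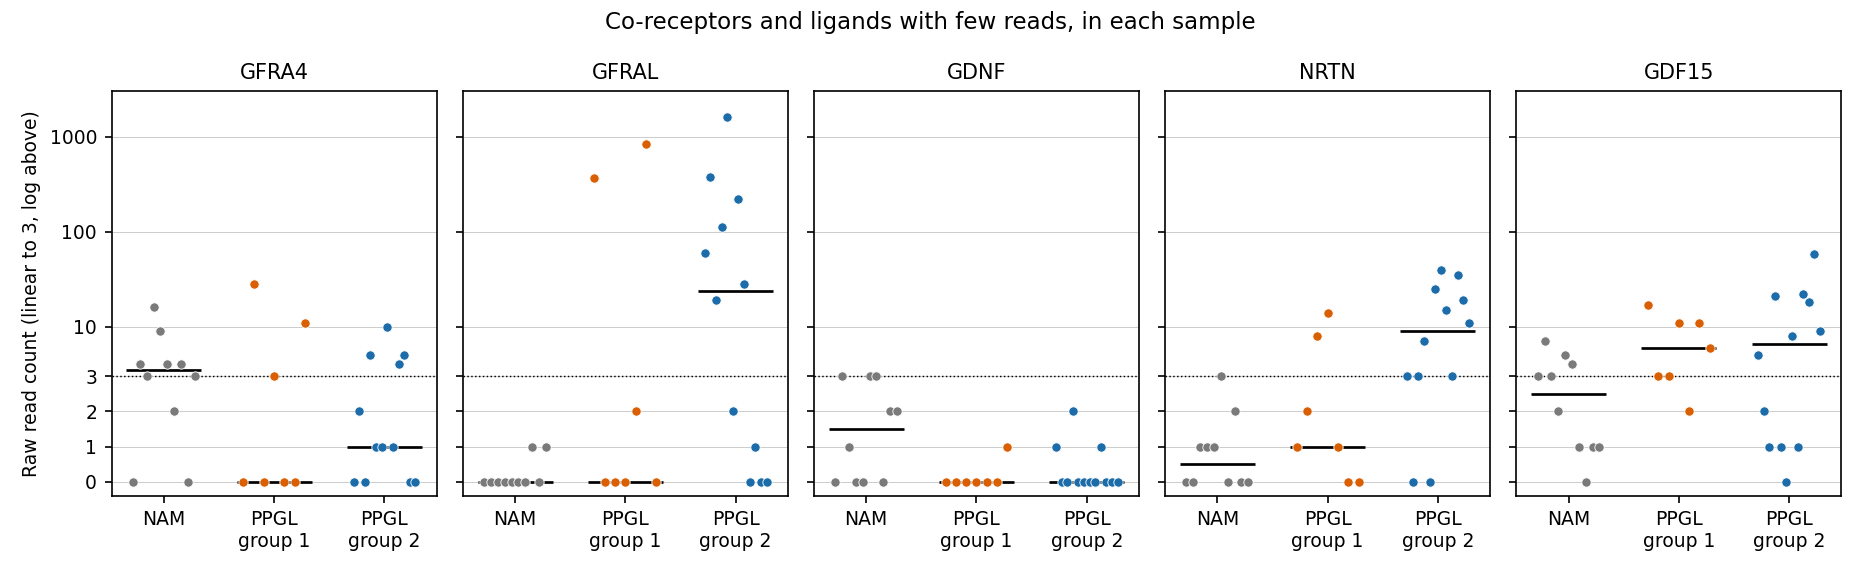
Raw read counts of GFRA4, GFRAL, GDNF, NRTN and GDF15 in each sample, on an axis that is linear up to 3 reads (dotted line, the floor) and logarithmic above, with a black line at each group's median. GFRAL had 0 or 1 read in every NAM and up to 1609 in a tumor, while GDNF had at most 3 reads in any sample.

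Levels of different members were compared as CPM per kb of exon. In NAMs the order by median was GFRA3 at 21.0, GFRA1 at 17.5, GFRA2 at 3.90 and RET at 1.85 CPM per kb, with GFRA4 and the ligands under 0.2. GFRA3, at 3.16 to 63.2, and GFRA1, at 6.35 to 28.5, overlapped in range, as did GFRA2, at 2.29 to 8.86, and RET, at 0.421 to 5.72. In PPGLs the order by median was RET at 28.1, GFRA3 at 6.02, GFRA2 at 2.61 and GFRA1 at 1.71 CPM per kb, and the ranges of these 4 genes overlapped. The co-receptors together exceeded RET in every NAM, by 9.38 to 64.7 times with a median of 26.3 times. In PPGLs the ratio had a median of 0.859, and the co-receptors together were above RET in 9 tumors and below it in 10. The highest ratios among tumors were 496 in tumor 1 and 138 in tumor 5 of group 1, the 2 tumors with the least RET, and in the other 17 tumors the ratio ran from 0.12 to 1.78.

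The makeup of the co-receptors also differed from tumor to tumor. In NAMs GFRA3 had the highest level per kb in 8 of 10 samples and GFRA1 in the other 2, with shares of 43.3% to 67.3% of the summed level. In PPGLs, GFRA3 led in 8 tumors, GFRA2 in 5, GFRA1 in 4 and GFRAL in 2. Tumor 1 of group 1 had 94.2% of its co-receptor level in GFRA3, tumor 5 of group 1 had 80.9% in GFRA2, tumor 1 of group 2 had 79.9% in GFRA1 and tumor 5 of group 2 had 82.2% in GFRAL. Each of these genes was thus the leading co-receptor of some tumor, and 3 of the 4 led in both tumor groups.

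**Figure D3:**
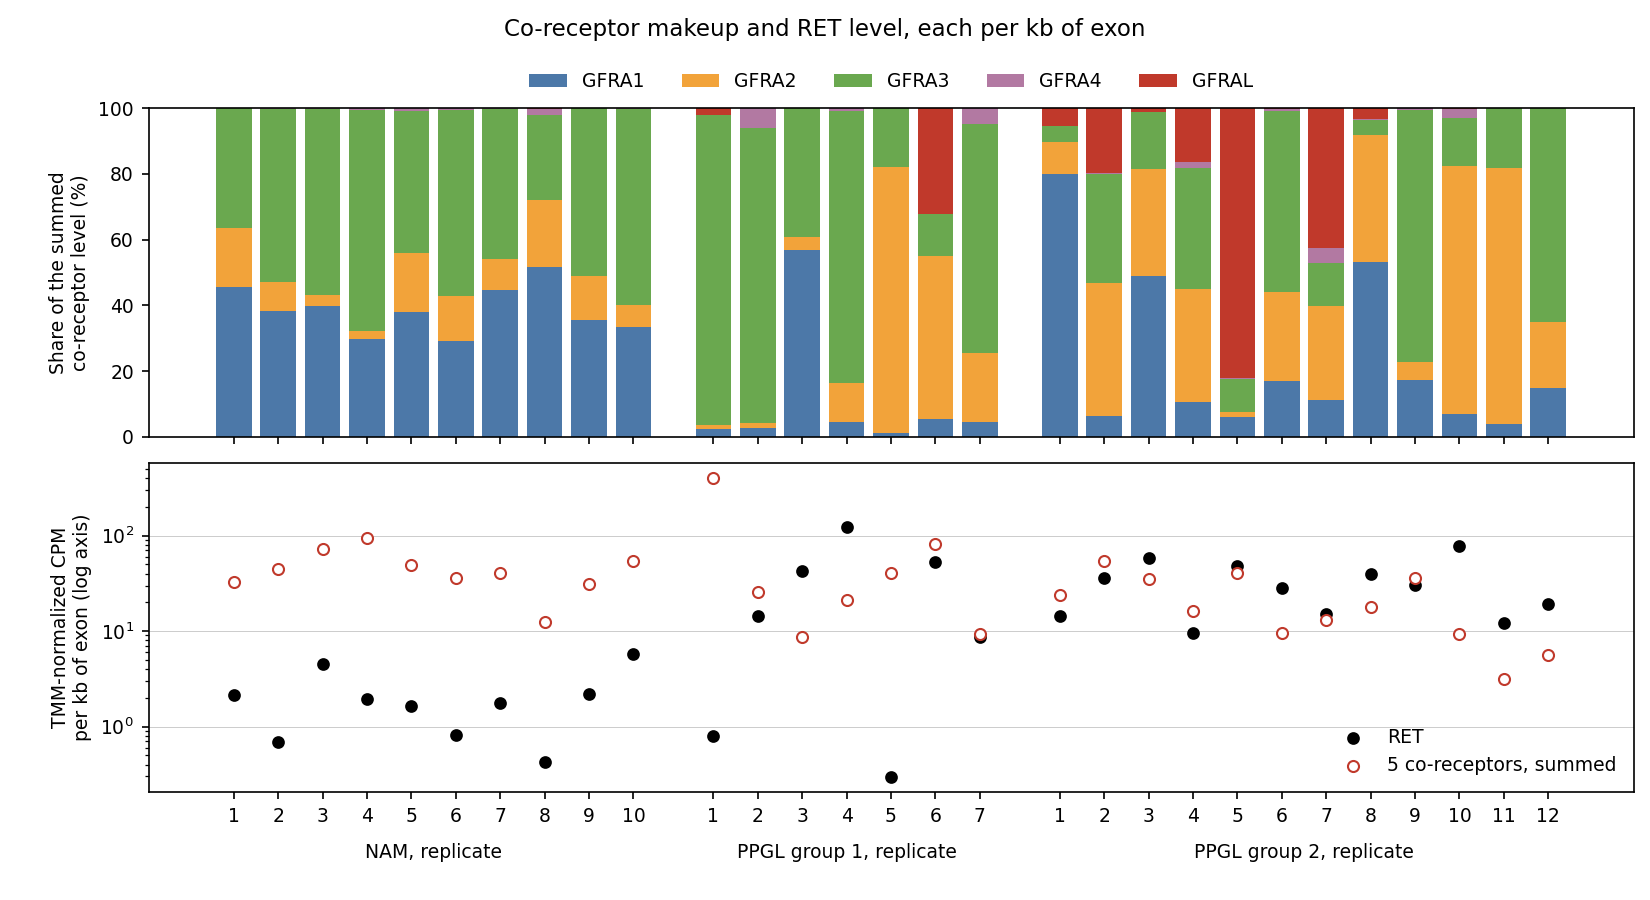
Bars, from 0 to 100%: share of each co-receptor in the summed co-receptor level (TMM-normalized CPM per kb of exon) in each sample. Points, on a log axis: RET and the sum of the 5 co-receptors per kb. The sum lay above RET in all 10 NAMs and in 9 of 19 PPGLs.

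The genes most like each member were sought over the 19 PPGLs by Spearman's rho on log2 CPM, as a description of genes chosen for ranking highest. For RET these were GOT1 (rho 0.79), PARG (0.78), SNAP25 (0.78), SEC23IP (0.78) and SCFD1 (0.77). GOT1, PARG and SEC23IP lie on chromosome 28, as RET does, and that chromosome holds 244 of the 12806 named genes ranked, or 1.91%. Unlike RET, none of the 5 was called in PPGLs against NAMs, with log2 FCs between -0.66 and 0.11. The highest for GFRA1 were DNAJC27 (0.77), G6PC3 (0.75) and IL7 (0.75), for GFRA2 SVIP (0.80), DNAJC8 (0.80) and TSEN15 (0.75), and for GFRA3 DUOX1 (0.85), GAL3ST1 (0.78) and DAB1 (0.77). RET lies on chromosome 28 from 3947232 to 3994210 and GFRA1 on the same chromosome from 26709645 to 26909992 (CanFam3.1). The other members found are on chromosomes 25 (GFRA2), 11 (GFRA3), 24 (GFRA4), 12 (GFRAL), 4 (GDNF) and 20 (NRTN and GDF15).

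The other genes of the pathway were read from 4 lists, whose members were chosen for their known roles. Transcription factors that act on RET in the neural crest had the highest median log2 FC in PPGLs against NAMs, 1.41 over 9 genes tested, beside 0.13 over all genes. Of the 9, 5 were called higher and none lower by edgeR, or 55.6% on few genes, beside 37.5% of all genes called and 22.3% called higher. PHOX2A, a homeodomain factor of noradrenergic cells, ran from 70.2 to 206 CPM among NAMs and, without overlap, from 244 to 910 CPM among tumors, a 4.49-fold rise (log2 FC 2.17, SE 0.24, adjusted p = 1.75e-07). GATA2 rose 4.71-fold (log2 FC 2.24, SE 0.32) with 16 of 19 tumors above every NAM, and HAND2 2.65-fold (log2 FC 1.41, SE 0.31) with 11 of 19. EBF1, at 1.79 (SE 0.62, adjusted p = 0.0230), rested on tumor 7 of group 1 at 79.0 CPM and was 0.93 (adjusted p = 0.0679) without it. With the cortex covariate the calls of EBF1, which turned to -0.12, and HAND2 (0.49) were lost. INSM1 was not found, HMX1 had no reads in NAMs and up to 409 in tumor 7 of group 1, and PAX3 had at most 4 reads.

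Adaptors and effectors that carry the signal of RET onward showed no common direction. Of 46 genes 43 were found, 42 were tested and 15 were called, 8 higher and 7 lower, with a median log2 FC of 0.10. The share called, 35.7%, was near the 37.5% of all genes. Those with the lowest adjusted p included PIK3CA, the catalytic subunit of PI3K (log2 FC -1.44, SE 0.23), the docking protein IRS1 (-1.54, SE 0.27) and the ubiquitin ligase CBLB (-1.10, SE 0.21), each below the NAM median in 18 or 19 of 19 tumors. On the higher side, FRS3, a docking protein, was above every NAM in 18 of 19 tumors (log2 FC 1.20, SE 0.22), and GRB2, an adaptor of the RAS route, in 14 (log2 FC 0.45, SE 0.11). Adjusted p for these 5 genes was between 3.27e-05 and 0.00151. The call of FRS3 was lost with the cortex covariate (log2 FC 0.54). SHC2, PDLIM7 and RAP1GAP were not found, and GRB7 was left out by the filter.

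ERK feedback and target genes, which are often read as the output of this route, had a median log2 FC of -0.02 over 17 tested, with 1 called higher and 4 lower, a share called of 29.4% beside 37.5% of all genes. PHLDA1 fell most, with 14.3 to 95.9 CPM among NAMs against 0.832 to 21.1 CPM among tumors (log2 FC -2.88, SE 0.50, adjusted p = 6.91e-05), and lay below every NAM in 16 of 19 tumors. The ETS factors ETV4 (log2 FC -1.78, SE 0.43) and ETV1 (-1.37, SE 0.37) were lower with adjusted p of 0.00187 and 0.00417. EPHA2 (-0.94, SE 0.38, adjusted p = 0.0494) was near the threshold, and its call was lost when 1 of 18 libraries was left out: NAM 3, 6, 8 or 9, any tumor of group 1, or tumor 2, 3, 5, 6, 7, 8 or 12 of group 2, with values from -0.56 to -0.99. CCND1, cyclin D1, was higher (log2 FC 0.81, SE 0.28, adjusted p = 0.0200), above the NAM median in 17 of 19 tumors. With the cortex covariate all 5 calls were lost, with log2 FCs of -1.33, -1.03, -0.33, -0.21 and 0.16 in that order. The library size scaling (-0.84), the fit with no filter (-0.96) and the Mann-Whitney U-test also ended the call of EPHA2, and the Mann-Whitney U-test that of EBF1. SPRED3 was not found.

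Among other ligands and accessory receptors of the family, 7 of 8 genes were tested, 2 were called higher and 1 lower, with a median log2 FC of -0.09. The share called, 42.9% of 7 genes, was near that of all genes. LRIG1, a membrane protein that restrains receptor kinases including RET, was above every NAM in 15 of 19 tumors (log2 FC 0.96, SE 0.21, adjusted p = 0.000670). MMP14, a membrane protease, was higher by 1.19 (SE 0.37, adjusted p = 0.0121), with its highest value, 1019 CPM, in tumor 11 of group 2. SDC3, a syndecan that binds GDNF, was lower by -0.82 (SE 0.23, adjusted p = 0.00582) and below every NAM in 14 of 19 tumors. All 3 calls were lost with the cortex covariate, at log2 FCs of 0.68, 1.23 and -0.70. Over the 4 lists, 12 of the 19 genes picked by the naming rule lost their call in that fit, 2 of the 19 not being described here.

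Between the tumor groups, where 6.92% of all genes were called, the lists had 1 of 7, 2 of 42, 3 of 17 and 3 of 9 genes called for accessory receptors, adaptors, ERK genes and transcription factors. In the ERK list DUSP4, DUSP5 and PHLDA1 were lower in group 1 (log2 FC -2.69, -3.47 and -2.50), 3 of 3 in the same direction, and the list's median was -0.26 beside 0.04 over all genes. In the transcription factor list ISL1 (log2 FC 5.02, SE 1.15, adjusted p = 0.0244) and HAND2 (1.02) were higher in group 1. NCAM1, a cell adhesion molecule that can serve as a receptor for GDNF without RET, was higher in group 1 (log2 FC 1.71, SE 0.27, adjusted p = 0.00541), as was the adaptor SHC3 (3.42), while SHC1 was lower (-0.73). These genes are named because so few were called between the groups, after their values had been seen. Marker lists moved with this split too. Of the cortex markers 8 of 9 tested were called lower in group 1, and of the mitotic markers 6 of 8 were called higher, with a median log2 FC of 1.82. Neuron-type markers had a median log2 FC of 1.53 and fibroblast markers of -2.09, with 0 of 7 and 0 of 6 called by edgeR. With the cortex covariate edgeR called 0 of 14666 genes between the groups, with 1546 at an unadjusted p below 0.05, against 1793 called by DESeq2's Wald test and 386 by the Mann-Whitney U-test without it.

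**Figure D4:**
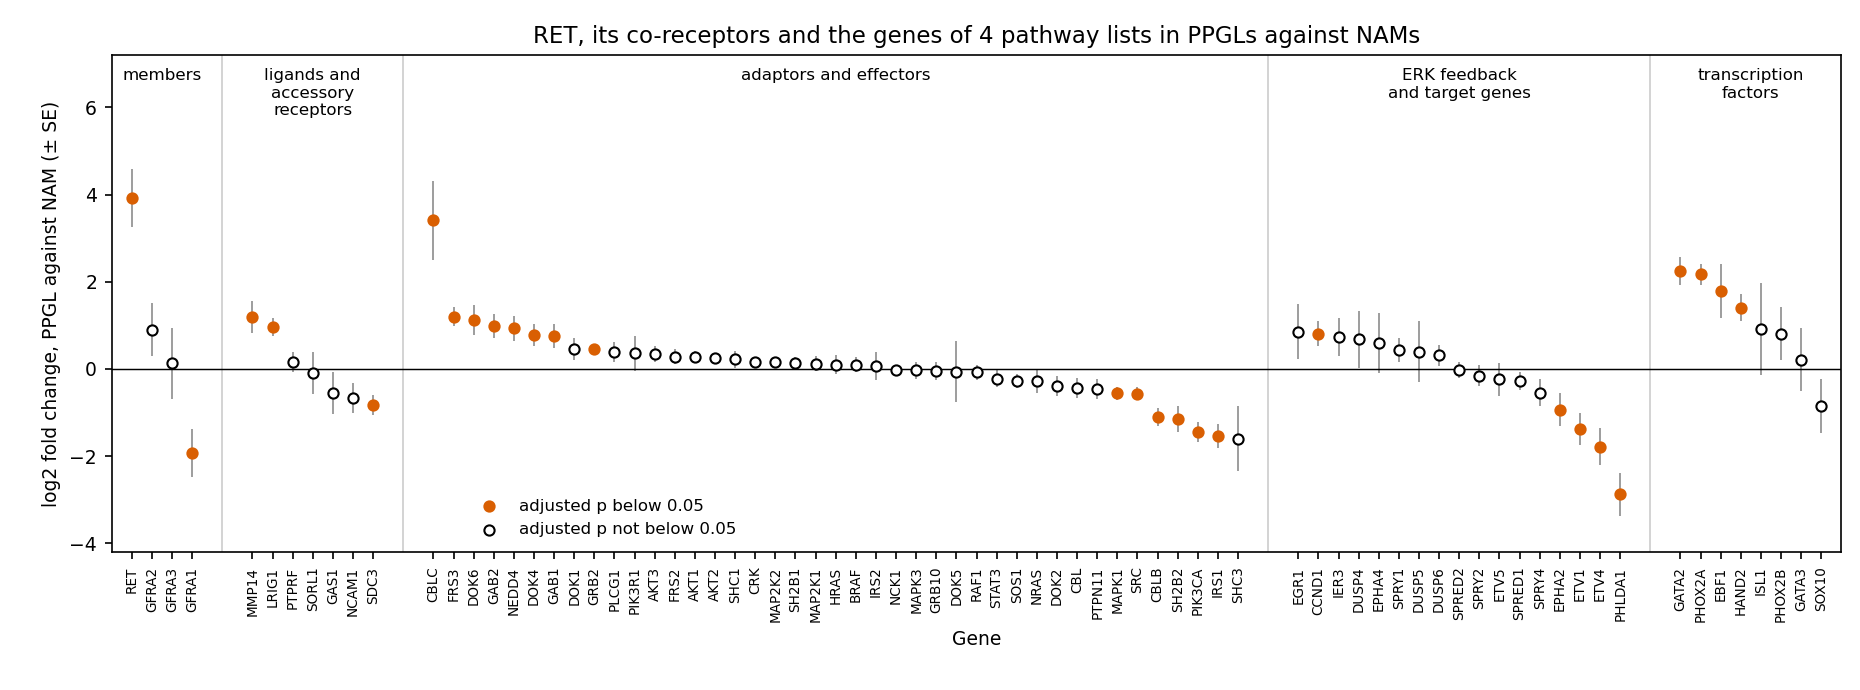
Log2 fold change of PPGLs against NAMs with its SE (edgeR) for the 4 members tested and for the genes tested of 4 pathway lists except 2, ordered within each list. Filled points had an adjusted p below 0.05, and all filled transcription factors were higher, while called adaptors lay on both sides of 0 and 4 of the 5 ERK genes called were lower.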

How the data were processed

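Single-end reads of 50 bp from stranded mRNA libraries were aligned by the authors with STAR (CanFam3.1), and the deposited values are the raw count per Ensembl gene, over exons, in 29 samples. Members were matched by gene name, and the members and gene lists were chosen with earlier results of these data known. Counts were filtered by edgeR's filterByExpr (minimum count 10, minimum total 15), normalized by TMM and tested over all genes with the quasi-likelihood F test, PPGLs against NAMs on all samples, the tumor groups on the 19 PPGLs, and each group against NAMs in a fit of 3 groups. Members left out by the filter were compared by two-sided permutation tests of mean log2 CPM (prior count 2; 100000 resamples, or exact where group 1 was compared). Ratios of pooled counts are relative to library size after TMM normalization and have exact conditional 95% intervals. The genes named are all members, from each of 4 pathway lists those called in PPGLs against NAMs, at most the 6 with the lowest adjusted p (2 of these are left out of the text), the most abundant gene of each of 9 marker lists, and the named genes with the highest Spearman's rho, 5 for RET and 3 for each other member tested; other genes were named after their values were seen. Alternatives were DESeq2's size factors, library size, DESeq2's Wald test, the Mann-Whitney U-test, no filter or 1 CPM in 7 samples, a replicate block by sample number, the cortex score as a covariate, other groupings of coefficients, a prior count of 0.5, and each sample left out. The steps were tested on simulated data. The tools were edgeR 4.0.16, DESeq2 1.42.0 and limma 3.58.1 in R 4.3.3, and scipy 1.17.1 and matplotlib 3.10.9 in Python 3.11.15.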

Additional observations from a re-analysis of the deposited data

Results flagged for a closer look

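Samples far from the rest of their group were looked for in 18 groups of values, the 9 members found in the 10 NAMs and in the 7 tumors of group 1, on the log2 scale. Chance marks about 1 in 20 groups of continuous values, and 2 were marked. That rate does not hold for members with few reads and ties at 0, such as GDNF. GFRA3 in tumor 1 of group 1, at 516 CPM from 11789 reads, was separated from the other 6 tumors, at 4.66 to 31.8 CPM, by 0.59 of the range of the group. GDNF in tumor 7 of group 1, at 0.0336 CPM, was the 1 tumor of that group with a read, and the value is that single read.

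The difference between the tumor groups passed the test for 1 member, GFRA3, with a log2 FC of 3.37 (group 1 minus group 2, edgeR adjusted p = 0.0456). It rests on the same tumor 1 of group 1, without which it was 0.86 (adjusted p = 0.510). What sets this tumor apart was not tested.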

How the results depend on the processing

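Apart from leaving out samples, 387 values of members and named genes were recomputed under alternatives: 339 kept their direction and their side of the threshold, 36 lost their call, 1 gained one and 11 changed direction. DESeq2's size factors changed none of 44. The filter of 1 CPM changed none of the 38 it kept, but it dropped NRTN and GDF15 from every test. With it, GFRAL entered PPGLs against NAMs through its reads in tumors alone and was called (log2 FC 9.39, adjusted p = 0.000497). Library size in place of TMM moved the median log2 FC of all genes in group 1 against NAMs from 0.13 to 0.24. The cause of the changes below was not tested.

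With the cortex score as a covariate, genes called went from 5541 to 2359 in PPGLs against NAMs, from 5331 to 20 and from 5005 to 1259 in group 1 and group 2 against NAMs, and from 1015 to 0 between the groups, and members called from 3 to 0, 6 to 3 and 1 to 0 in these last 3. The score largely follows the groups, so this fit cannot separate score from group. GFRA3 turned to -3.06 and EBF1 to -0.12 in PPGLs against NAMs. DESeq2's Wald test called 1793 genes between the groups and 0 members, and turned GFRA3 to -1.63 in PPGLs and -1.15 in group 1 against NAMs. The Mann-Whitney U-test called 386 genes and 0 members between the groups, and 3391 genes and 1 member in group 1 against NAMs. Among members, 0 had an unadjusted p below 0.05 between the groups with the covariate or the Wald test, 1 with the Mann-Whitney U-test, and 2 in group 1 against NAMs with the covariate. The contrast of the groups in the fit of 3 groups called 2567 genes. With the mean of the 2 group coefficients 5 members were called and GFRA3 turned to -0.33, and with no filter 6 members were called, since more members were tested.

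The sample numbers count different dogs in each group and do not pair them: of 24 pairs with the same number 2 had a correlation of deviations over 0.1 (-0.232 to 0.251). With the replicate block 47 genes and 0 members were called between the groups (1526 genes and 1 member at an unadjusted p below 0.05), and the log2 FC turned to -1.10 for RET, -0.31 for GFRA2, -6.61 for GFRAL and 0.84 for GDF15. GFRA3 turned to -1.66 in PPGLs and -0.75 in group 1 against NAMs. Calls not made with the block were those of GFRA3 between the groups (1.33), GFRAL in group 1 (6.60) and GDF15 in group 2 (1.21) against NAMs, and CCND1 (0.68), EBF1 (0.87) and EPHA2 (-0.78) in PPGLs against NAMs.

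Over single samples left out, genes called between the groups ran from 525 (without tumor 7 of group 1) to 1218 and members called from 0 to 1, and members called in group 2 against NAMs from 3 (without tumor 7 or 12, where GFRA1 and GFRA3 lost their calls and NRTN failed the filter) to 6. The log2 FC of GFRA3 ran from -1.65 to 0.39 in PPGLs and from -1.15 to 1.66 in group 1 against NAMs, that of GFRA2 in group 2 against NAMs from -0.04 to 0.58, and between the groups that of RET from -0.72 to 0.31 and of GFRAL from -1.66 to 1.36. Depth limits GFRA4, GFRAL, GDNF, NRTN and GDF15 most, whose counts in NAMs were at most 16, 1, 3, 3 and 7 reads.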
